A study of Drosophila melanogaster with 9 samples.

Results

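The tricarboxylic acid cycle genes described here are 7 of a list of 10, measured in dissected brains of Drosophila melanogaster aged 3, 30 and 60 days (3d, 30d and 60d). They are muc, mAcon1, Idh3a, Idh3b, Idh3g, Idh and Scsalpha1, each chosen because a probe set carries that single gene symbol in the platform annotation, and they stand among 11982 genes with a probe set of their own. The other 3 listed genes, kdn (citrate synthase), Fum1 (fumarase) and Mdh2 (mitochondrial malate dehydrogenase), have no probe set under their own name and were not analysed here. The study used 9 Affymetrix Drosophila 2.0 arrays, 3 per age, and asks how brain transcript levels differ with natural ageing. All flies were kept at 25°C on a cornmeal and molasses diet with yeast, and no genotype, strain or sex is given in the labels. Whether the replicates of an age are separate animals or pools is also not given, so every p-value measures only the spread between these arrays.

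The tricarboxylic acid cycle runs in mitochondria, where it oxidises the acetyl group of acetyl-CoA to carbon dioxide and passes the electrons to the respiratory chain. In neurons, which meet much of their energy demand by respiration, its intermediates also feed the synthesis of glutamate. Pyruvate from glycolysis enters through the pyruvate dehydrogenase complex, and the NAD-dependent isocitrate dehydrogenase, built from alpha, beta and gamma subunits, is among the regulated steps. The label holds for 5 of the 7 measured genes: mAcon1, the 3 Idh3 subunits and Scsalpha1. The gene muc encodes the acetyltransferase subunit (E2) of pyruvate dehydrogenase, which feeds the cycle, and Idh encodes an NADP-dependent isocitrate dehydrogenase, which makes NADPH and is not a step of the cycle itself.

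Most of the measured genes were lower in the older brains than at 3d. At 60d against 3d, 5 of the 7 fell, by 0.79 to 1.08 on the log2 scale (1.72-fold to 2.11-fold), and at 30d against 3d, 6 of the 7 fell. At 60d against 30d limma passed 0 of the 7. A change is the difference in mean log2(signal + 1) with its SE from limma, fitted to all 9 arrays, and passing means a Benjamini-Hochberg adjusted p below 0.05 over the 8171 genes tested. Of all genes tested, 18.5% changed at 60d against 3d (10.5% fell and 8.03% rose) and 42.3% changed at 30d against 3d (21.3% fell and 21% rose). At 60d against 30d 0.538% changed (0.526% rose and 0.0122% fell). The split of all genes depended on the scaling: of those called at 60d against 3d 43.4% were higher, against 31.5% with quantile normalization and 18.1% with each array centred on its median, and at 30d against 3d the shares were 49.6%, 35.7% and 18.5%. Centring moved every gene by -0.17 at 60d against 3d and by -0.26 at 30d against 3d, while the 5 and 6 falls became 5 and 5 with quantile normalization and 5 and 6 with centring. The median change of the 7 genes was -0.82 at 60d against 3d (median of all genes 0.04), -0.99 at 30d against 3d (all genes -0.01) and 0.06 at 60d against 30d (all genes 0.02). All 7 passed the filter on low signals and each had 1 probe set, with a mean signal between percentile 87.8 and 95.7 of all probe sets.

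**Figure D1:**
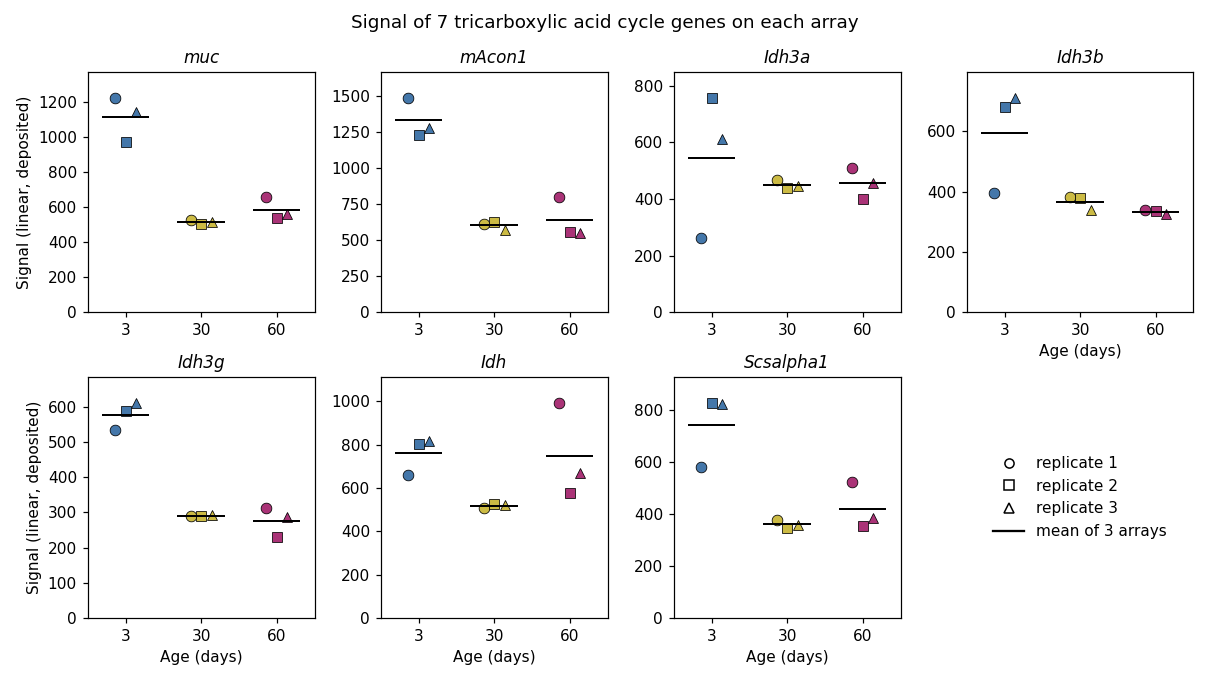
Deposited linear signal (vertical axis, from 0) of the 7 genes at 3, 30 and 60 days, with each point an array, its shape the replicate number and the bar the mean of 3 arrays. For muc, mAcon1, Idh3b, Idh3g and Scsalpha1 every 3d array lies above every 30d and 60d array, whereas Idh3a on 3d replicate 1 (263.2) lies below all other arrays.

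Before the genes are taken in turn, some properties of the arrays matter. On 3d replicate 1 the log2 ratio of 3' to 5' signal, a measure of how complete the amplified RNA was, was 5.06 for the GAPDH control and 6.83 for the eIF-4a control. On the other 8 arrays these ratios lay between 1.58 and 2.07 and between 2.57 and 3.24. The other controls set 3d replicate 1 less apart. Its 18S rRNA ratio was 1.29, against 0.48 to 0.84 elsewhere, and its actin ratio of 0.56 lay within the -0.65 to 0.58 of the other arrays. Replicates were tighter at 30d (median within-age SD of a gene 0.094) than at 3d (0.229) or 60d (0.209). The fit shares the spread of a gene over all ages, so the SE at 60d against 3d also draws on the tighter 30d arrays. On the first principal component, which held 53.2% of the variance, 60d replicate 1 lay at -11.63, nearer to the 3d arrays (-37.07 to -20.86) than to the 30d arrays (18.14 to 22.82). The median signal was 60.6 to 67.6 at 3d, 76.1 to 78.3 at 30d and 66.5 to 77.0 at 60d.

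The gene that brings pyruvate carbon into the cycle, muc, was lower at both later ages (locus tag CG5261). Its signal was 1224.5, 970.7 and 1145.2 on the 3d arrays, 525.7, 506.3 and 516.4 at 30d, and 659.1, 541.0 and 559.8 at 60d. No array of 30d or 60d reached any 3d array, and all 60d arrays lay above all 30d arrays. The change was -0.92 ± 0.14 at 60d against 3d, a 1.90-fold lower level (limma adjusted p = 0.0021). At 30d against 3d it was -1.10 ± 0.14, or 2.15-fold lower (adjusted p = 0.00176). The small upward difference at 60d against 30d, 0.18 ± 0.14, did not pass (adjusted p = 0.537), and its 95% interval ran from -0.13 to 0.49.

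The mitochondrial aconitase mAcon1, which turns citrate into isocitrate, had the largest fall of the 7 at 60d against 3d (locus tag CG9244). Its signal was 1485.7, 1224.0 and 1275.0 at 3d, 610.4, 628.4 and 568.3 at 30d, and 797.8, 558.8 and 551.9 at 60d. The 3d arrays stood apart from all others, and 60d replicate 1 was the highest array outside 3d. mAcon1 fell by 1.08 ± 0.16 at 60d against 3d (2.11-fold lower, adjusted p = 0.00213). It fell by 1.14 ± 0.16 at 30d against 3d (2.20-fold lower, adjusted p = 0.00234). At 60d against 30d its change of 0.06 ± 0.16 did not pass (adjusted p = 0.871, 95% interval -0.30 to 0.42). For both muc and mAcon1 these calls held in all 19 alternative settings, with the 60d against 3d change between -1.09 and -0.80 for muc and between -1.25 and -0.98 for mAcon1.

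Within isocitrate dehydrogenase, the gamma subunit Idh3g had the smallest SE of the 3 subunits (locus tag CG5028). Its signal was 534.2, 589.3 and 611.0 at 3d, 290.1, 290.5 and 291.5 at 30d, and 312.9, 228.8 and 286.9 at 60d. Both later ages were below every 3d array. Idh3g fell by 1.07 ± 0.14 at 60d against 3d (2.10-fold lower, limma adjusted p = 0.00116) and by 0.99 ± 0.14 at 30d against 3d (1.98-fold lower, adjusted p = 0.00234). These calls held in all 19 alternatives.

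The beta subunit Idh3b fell as well, but with less certainty (locus tag CG6439). Its signal was 395.0, 680.7 and 711.6 at 3d, 380.9, 378.7 and 338.1 at 30d, and 339.9, 337.5 and 324.5 at 60d. The 3d arrays still lay above all others, with 3d replicate 1 only just above the highest 30d array. The change was -0.79 ± 0.20 at 60d against 3d (1.72-fold lower, limma adjusted p = 0.0219) and -0.66 ± 0.20 at 30d against 3d (1.58-fold lower, adjusted p = 0.0242). Without 3d replicate 1 it was -1.06 ± 0.12 and -0.93 ± 0.12 (adjusted p = 0.000879 and 0.00199). The 60d against 3d call did not survive leaving out replicate 2 or 3 of 60d (-0.79 and -0.76, adjusted p = 0.0516 and 0.0796) or of 3d (-0.67 and -0.63, adjusted p = 0.0591 and 0.0867). It was also lost when only the arrays of these ages were fitted (adjusted p = 0.0712). The 30d against 3d call was lost without 3d replicate 2 or 3 (-0.54 and -0.50, adjusted p = 0.0789 and 0.103) and without 30d replicate 1, 2 or 3 (-0.69, -0.68 and -0.60, adjusted p = 0.0568, 0.0616 and 0.0858).

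For the alpha subunit Idh3a, 1 array decided the result (locus tag CG12233). Its signal was 263.2, 757.7 and 613.1 at 3d, 466.4, 437.2 and 445.6 at 30d, and 508.9, 401.4 and 456.6 at 60d. The 3d arrays thus span all the later ones, with 3d replicate 1 lowest and 3d replicates 2 and 3 highest of the 9, and the SD at 3d was 0.81 on the log2 scale against 0.05 at 30d and 0.17 at 60d. Neither change from 3d passed: -0.13 ± 0.30 at 60d (95% interval -0.80 to 0.53, adjusted p = 0.787) and -0.14 ± 0.30 at 30d (95% interval -0.81 to 0.52, adjusted p = 0.722). Without 3d replicate 1 Idh3a fell by 0.59 ± 0.15 at 60d against 3d (adjusted p = 0.0178) and by 0.60 ± 0.15 at 30d against 3d (adjusted p = 0.00926). With the GAPDH 3' to 5' ratio as a covariate it fell by 0.56 ± 0.13 and 0.52 ± 0.13 (adjusted p = 0.0134 and 0.00939). That ratio was 5.06 on 3d replicate 1 and 1.58 to 2.07 on the other arrays. The covariate fit therefore largely repeats leaving out 3d replicate 1 and is not separate support. Without 3d replicate 2 or 3 the 60d against 3d change was 0.17 and 0.02, and that at 30d against 3d was 0.16 and 0.01, none of them passing. The part of RNA completeness in the low Idh3a signal of 3d replicate 1 was not tested.

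The balance of the Idh3 subunits on that array differed from the others too. The Idh3a minus Idh3g difference in log2 signal within an array was -1.02 on 3d replicate 1, 0.36 and 0.01 on 3d replicates 2 and 3, 0.59 to 0.68 at 30d and 0.67 to 0.81 at 60d. These differences set probes of unlike brightness against each other, so only their shift between arrays can be read, and they were not tested. At 30d and 60d every array had a higher Idh3a to Idh3g balance than any 3d array.

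**Figure D2:**
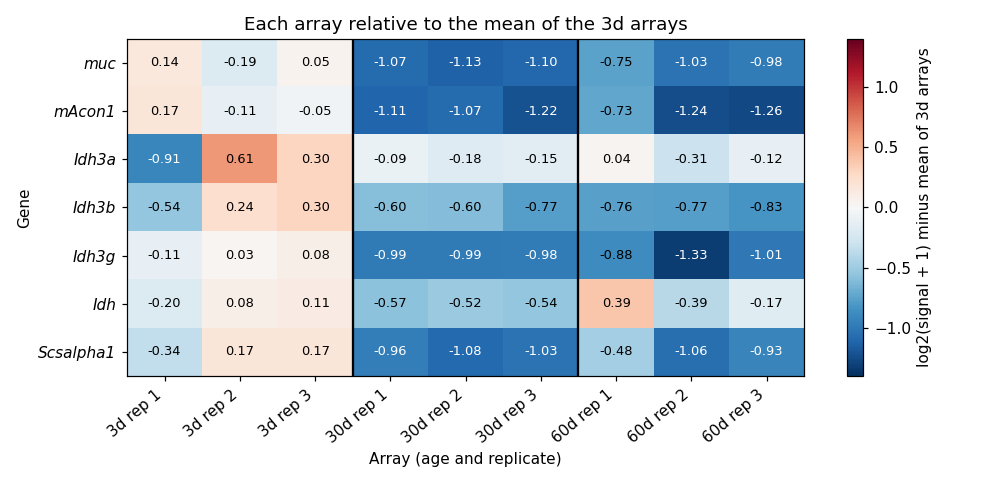
Log2(signal + 1) of each gene on each array minus the mean of the 3d arrays, in colour and as the printed number, with genes as rows and arrays as columns. Idh3a runs from -0.91 to 0.61 within 3d, and all 7 genes have their highest 60d value on 60d replicate 1.

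The NADP-dependent Idh followed another course (locus tag CG7176), on a probe set of the _s_at kind, whose probes can match more than 1 transcript, so that its signal is less certain to come from a single gene. Its signal was 660.5, 801.7 and 816.9 at 3d, 507.2, 527.3 and 519.9 at 30d, and 992.0, 577.0 and 670.3 at 60d. The 30d arrays were below all others, and the 60d arrays reached from below to above the 3d range. At 60d against 3d Idh did not pass (-0.06 ± 0.19, 95% interval -0.47 to 0.36, limma adjusted p = 0.851). When replicate 1 was removed from both 60d and 3d it fell by 0.38 ± 0.12 (adjusted p = 0.0258), and without 60d replicate 2 or 3 its change was 0.11 and 0.00. At 30d against 3d it fell by 0.54 ± 0.19 (1.46-fold lower, adjusted p = 0.0377). That call was lost without 3d replicate 2 or 3 (-0.50 and -0.49, adjusted p = 0.0933 and 0.12), without 30d replicate 1, 2 or 3 (-0.53, -0.56 and -0.55, adjusted p = 0.099, 0.0904 and 0.0956) and without 60d replicate 3 (adjusted p = 0.0537). It was lost with quantile normalization (-0.40, adjusted p = 0.078), with no filter on low signals (adjusted p = 0.0554) and with the replicate block (adjusted p = 0.0633) as well. At 60d against 30d Idh stood 0.49 ± 0.19 higher, which did not pass after adjustment over all genes (adjusted p = 0.271, unadjusted p = 0.0249, the only 1 of the 7 genes below an unadjusted 0.05). The 60d arrays of Idh did not overlap the 30d arrays.

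Scsalpha1, the alpha subunit of succinyl-CoA synthetase, which makes a nucleoside triphosphate directly in the cycle, completes the set (locus tag CG1065). Its signal was 580.0, 828.2 and 823.8 at 3d, 375.9, 346.1 and 358.7 at 30d, and 525.9, 352.7 and 385.3 at 60d. Every 3d array exceeded every later array, with 60d replicate 1 nearest to the 3d range. Scsalpha1 fell by 0.82 ± 0.19 at 60d against 3d (1.77-fold lower, limma adjusted p = 0.0128) and by 1.03 ± 0.19 at 30d against 3d (2.04-fold lower, adjusted p = 0.00355). The first of these calls was lost when replicate 3 of either 60d or 3d was left out (-0.77 and -0.74, adjusted p = 0.0611 and 0.0536) and when only the arrays of these ages were fitted (adjusted p = 0.0522). The second held in all 19 alternatives.

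**Figure D3:**
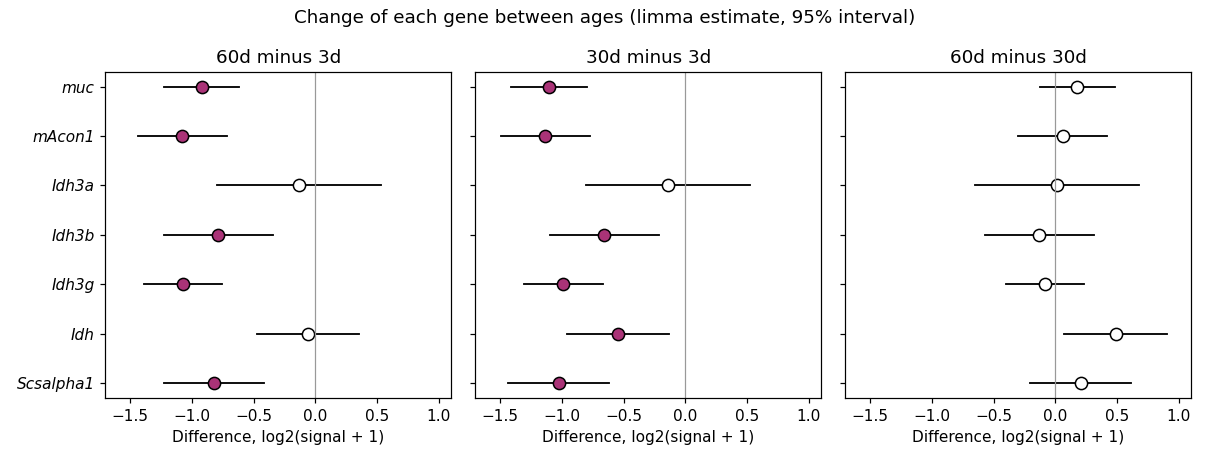
Change of each gene on the log2(signal + 1) scale for 60d minus 3d, 30d minus 3d and 60d minus 30d, with 95% intervals from limma and filled points for an adjusted p below 0.05. In the panels against 3d the filled points lie between -1.14 and -0.54, and in the 60d minus 30d panel no point is filled.

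Ordered by the size of the fall at 60d against 3d, the genes ran mAcon1, Idh3g, muc, Scsalpha1, Idh3b, Idh3a and Idh. Neighbours in this order had overlapping 95% intervals throughout, and differences between genes were not tested. Non-overlap of the arrays gave the same 5 genes at 60d against 3d, with all 60d arrays below all 3d arrays (17.6% of all genes were lower in this way and 13.5% higher), and 6 at 30d against 3d (29.6% of all genes lower, 28.3% higher). Between 60d and 30d, muc and Idh did not overlap, both with higher 60d arrays (17.2% of all genes).

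The time course was tested as the change from 30 to 60 days minus the change from 3 to 30 days. This difference was positive for all 7 genes, and 5 of them passed, against 18.4% of all genes called, 10.1% in that direction and 8.3% in the other. Of all genes called here 55.0% were positive, 71.9% with quantile normalization and 88.8% with centring, and 4 and 5 of the 7 genes passed under these scalings. It was 1.28 ± 0.24 for muc, 1.23 ± 0.32 for Scsalpha1 and 1.19 ± 0.29 for mAcon1 (limma adjusted p = 0.0307, 0.0357 and 0.0323). Idh reached 1.03 ± 0.33 and Idh3g 0.90 ± 0.25 (adjusted p = 0.0492 and 0.0386). The 0.53 ± 0.35 of Idh3b and the 0.16 ± 0.53 of Idh3a did not pass (adjusted p = 0.255 and 0.833). The 30d arrays enter both changes, so the intervals are not independent. The count of 5 fell to 0 without 3d replicate 3, without 30d replicate 1, 2 or 3, or without 60d replicate 3, and to 3 without 60d replicate 1. In those fits all genes called in either direction fell from 1507 to between 0 and 1, and to 688 without 60d replicate 1.

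Array 60d replicate 1 gave the highest 60d signal for 7 of the 7 genes, whereas 44.7% of all genes were highest there. Array 3d replicate 1 gave the lowest 3d signal for 5 of the 7, Idh3a, Idh3b, Idh3g, Idh and Scsalpha1, whereas 43.7% of all genes were lowest there. The count of genes that fell at 60d against 3d was 6 without 3d replicate 1 and 7 when replicate 1 was removed from both 60d and 3d. Removing the highest 60d array and, for most of the genes, the lowest 3d array deepens a fall by construction. These larger counts are therefore not support, and in the same fits all genes called went from 1511 to 2057 and 4177. With other arrays left out the count of the 7 genes was lower. That count was 3 without 3d replicate 3, 3 without 60d replicate 3 and 3 when only the arrays of 3d and 60d were fitted.

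**Figure D4:**
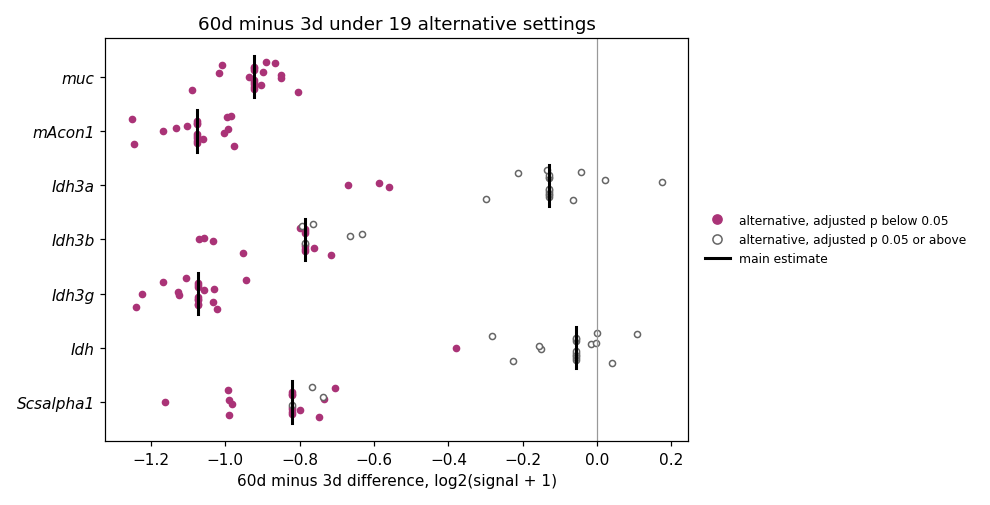
The 60d minus 3d difference in log2(signal + 1) of each gene under 19 alternative settings (points, filled where the adjusted p was below 0.05) beside the reported estimate (black bar). All points of muc, mAcon1 and Idh3g are filled, and the filled points of Idh3a lie between -0.67 and -0.56, to the left of its estimate of -0.13.

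Other genes of the pathway were listed by role, and 38 of them had a probe set, of which 26 passed the filter. At 60d against 3d, 8 of the 26 fell, 1 rose and 17 did not pass, with a median change of -0.25. The 9 calls became 14 without 60d replicate 1, of which 13 fell, and 20 when replicate 1 was removed from both 60d and 3d, of which 17 fell. In these fits all genes called also went up, from 1511 to 2492 (1171 fell) and 4177 (2026 fell) of the 8171 tested. The larger counts are thus not particular to the pathway. At 30d against 3d, 16 fell, 1 rose and 9 did not pass (median -0.68), and at 60d against 30d limma passed 0 of the 26. Of all genes tested 10.5% fell and 8.03% rose at 60d against 3d, and 21.3% fell and 21% rose at 30d against 3d. At 60d against 30d 0.538% changed. The counts by role that follow stand beside the same shares. The gene that rose at 30d against 3d, Scsalpha2, lay below the filter value on every 3d array.

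Among genes of pyruvate entry, 3 of 6 fell at 60d against 3d and 3 did not pass. CG7430, listed as E3, the dehydrogenase shared by pyruvate and 2-oxoglutarate dehydrogenase, had signals of 284.0, 198.8 and 221.8 at 60d against 510.9, 444.0 and 482.5 at 3d. It fell by 1.04 ± 0.15 (limma adjusted p = 0.00187), where muc, the E2 of the same complex, fell by 0.92. The mitochondrial pyruvate carrier subunits CG9399 (dMPC2) and Mpc1 fell by 0.77 ± 0.16 and 0.73 ± 0.23 (adjusted p = 0.00887 and 0.0463). CG9399, like Idh, was measured by a probe set of the _s_at kind, so its signal is less certain to come from a single gene. Of the 6, 4 fell at 30d against 3d, among them CG7430 by 1.27 ± 0.15 (adjusted p = 0.00176). Pdk, the kinase that inhibits pyruvate dehydrogenase, was at 0.32 ± 0.14 on the brighter of its 2 probe sets and did not pass (adjusted p = 0.118).

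Of the remaining cycle enzymes 3 of 8 fell and 5 did not pass. CG5214, listed as alpha-KGDHC, fell by 0.91 ± 0.15, with signals of 352.6, 272.9 and 306.8 at 60d against 498.7, 612.0 and 648.1 at 3d (limma adjusted p = 0.0028). SdhC and SdhB, subunits of succinate dehydrogenase, fell by 0.76 ± 0.16 and 0.64 ± 0.16 (adjusted p = 0.00987 and 0.0197). ScsbetaA and ScsbetaG, the beta subunits that pair with Scsalpha1, were at -0.43 ± 0.21 and -0.04 ± 0.16 and did not pass (adjusted p = 0.17 and 0.876). For ScsbetaG the brightest of 3 probe sets was used, and its signals were only 61.3 to 85.5 over all arrays. These are 5.96 to 6.43 on the log2 scale, close to the filter value of 5.71, so a change of ScsbetaG could be missed. In brains of 30d against 3d 5 of the 8 fell, and ScsbetaA was among them, at -0.71 ± 0.21 (adjusted p = 0.0208).

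For relatives of the listed genes limma passed 0 of 4 at 60d against 3d, and 9 of the 13 with a probe set did not pass the filter, among them mAcon2, Fum2, Fum3 and Fum4. The smallest p belonged to Irp-1B, an aconitase relative named for the iron regulatory proteins of mammals, at -0.52 ± 0.18 (limma adjusted p = 0.058). The cytosolic malate dehydrogenase Mdh1 was at -0.14 ± 0.19 (adjusted p = 0.638). Of the 4, 2 fell and 1 rose at 30d against 3d. Irp-1B fell by 0.82 ± 0.18 and Mdh1 by 0.62 ± 0.19 (adjusted p = 0.00639 and 0.0241), while Scsalpha2, a paralog of Scsalpha1, rose by 0.56 ± 0.19 (adjusted p = 0.032). On the log2 scale Scsalpha2 was 5.27 to 5.41 at 3d, below the filter value of 5.71, and 5.85 to 5.96 at 30d. Outside 30d only 60d replicate 2 (6.03) exceeded that value. The gene thus entered the test through the age where it was high, and its rise is not counted as support.

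Of 8 genes that supply or drain cycle intermediates, 2 fell, 1 rose and 5 did not pass at 60d against 3d. Among all genes 10.5% fell and 8.03% rose, so counts this small are not read as a result about this role. Gdh, glutamate dehydrogenase, which links 2-oxoglutarate to glutamate, fell by 0.93 ± 0.13, with signals of 581.8, 517.4 and 587.9 at 60d against 1005.4, 1061.4 and 1142.5 at 3d (limma adjusted p = 0.00131). The malic enzyme Men-b fell by 0.80 ± 0.13 (adjusted p = 0.00232). Pepck1, which draws oxaloacetate towards gluconeogenesis, rose by 1.42 ± 0.32, with signals of 825.7, 339.3 and 543.1 at 60d against 296.1, 155.6 and 169.2 at 3d (adjusted p = 0.012). At 60d it was highest on replicate 1, as the 7 genes were. Of these 8, 5 fell at 30d against 3d, and Pepck1, at 0.48 ± 0.32, did not pass (adjusted p = 0.229).

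**Figure D5:**
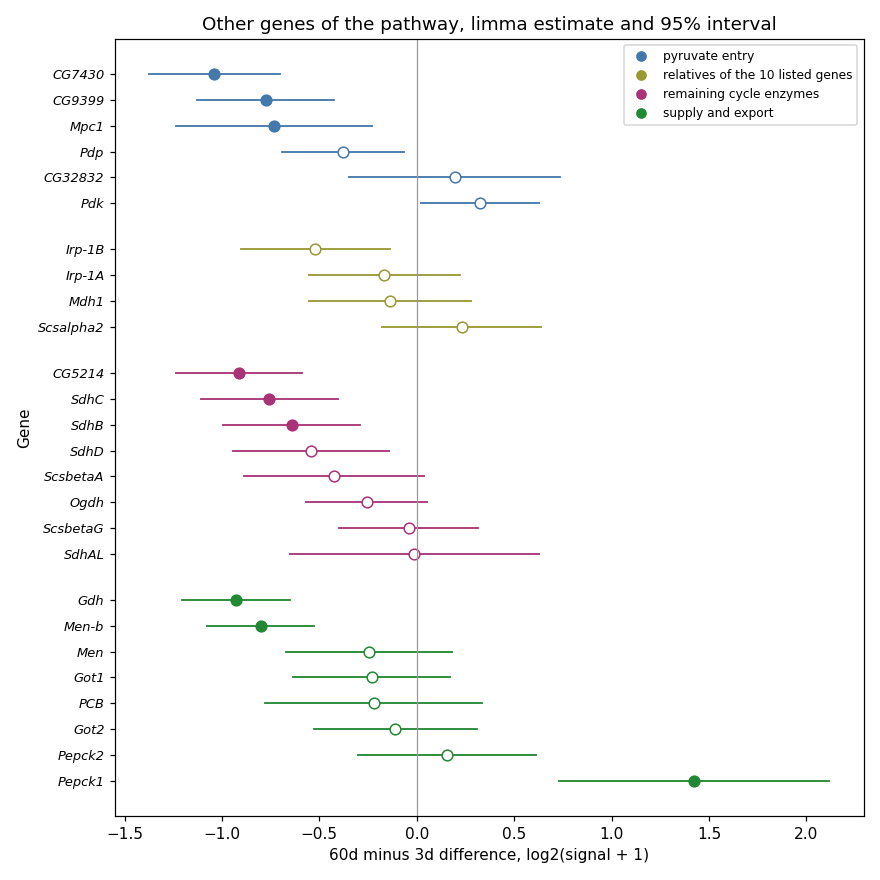
The 60d minus 3d difference in log2(signal + 1) of 26 other pathway genes with 95% intervals from limma, coloured by role and filled where the adjusted p was below 0.05. The filled points lie left of 0 except Pepck1 at 1.42.

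Some markers of brain cells and of adjoining tissues changed over the same ages, and their counts stand beside 10.5% of all genes that fell and 8.03% that rose at 60d against 3d. Of 6 tested neuron markers 2 fell at 60d against 3d, ChAT and Gad1, which make acetylcholine and GABA, by 0.53 and 0.65 (limma adjusted p = 0.0155 and 0.00761), while the neuronal RNA-binding protein elav was at -0.04 (adjusted p = 0.833). The summed signal of the 7 measured neuron markers was 4067.2 to 4562.1 at 60d against 5656.4 to 5822.1 at 3d. Mean signal went from 2511.4 at 3d to 1593.4 at 60d for Gad1 (an _s_at probe set), 1016.0 to 706.0 for ChAT and 495.6 to 291.7 for nSyb. It went from 1380.2 to 1341.7 for elav, 165.8 to 154.7 for para and 126.8 to 141.0 for brp, so the sum is not a fall of every marker. Of 8 retina genes 6 fell, with a sum of 8450.4 to 9244.1 at 60d against 12204.1 to 13357.9 at 3d. Muscle markers went the other way: 3 of 6 tested rose, bt, Mlp60A and Mp20. Of these, Mlp60A and Mp20 met the filter only through their 60d arrays, where they were high, so their part of the count is not support. The sum of the 7 measured was 1626.8 to 1904.8 at 60d against 1079.6 to 1501.2 at 3d. Its brightest member, sls, was at 0.23 and did not pass (limma adjusted p = 0.45). Of 5 glia markers 1 rose, Gli (an _s_at probe set), by 1.32 (limma adjusted p = 0.00187), and the others did not pass. The glia sum was 4384.2 to 5388.2 at 60d against 5468.9 to 6348.8 at 3d. Mean signal went from 3234.6 at 3d to 2502.1 at 60d for Gs2, 1519.0 to 1094.5 for alrm and 736.9 to 638.5 for repo. It went from 251.3 to 319.9 for moody and 99.3 to 249.6 for Gli, so these markers did not move together. Of 5 tested haemocyte markers 3 fell, Pxn, vkg and Col4a1 (the last on an _s_at probe set), and 1 rose, NimC1, by 1.09 (limma adjusted p = 0.0278). Hml was at 0.08 and did not pass (adjusted p = 0.874), so the markers did not move together. The sum of all 6 was 989.5 to 1638.5 at 60d against 1571.4 to 2010.1 at 3d. For fat body markers limma passed 0 of 7, and the sum of 8 was 13054.1 on 60d replicate 1 against 5542.1 and 9542.2 on the other 60d arrays and 6788.4 to 8482.4 at 3d. At 30d against 3d, where 21.3% of all genes fell and 21% rose, 3 of the 5 haemocyte markers fell, again Pxn, vkg and Col4a1. The haemocyte sum was 832.8 to 954.5 at 30d against 1571.4 to 2010.1 at 3d, without overlap. Of the retina genes 6 of 8 fell (10004.0 to 10837.7 at 30d against 12204.1 to 13357.9 at 3d), and of the neuron markers 2 of 6 fell (4349.9 to 4799.5 at 30d against 5656.4 to 5822.1 at 3d). Of the muscle markers 2 of 6 rose (1454.7 to 1626.8 at 30d against 1079.6 to 1501.2 at 3d), and of the glia markers 1 rose and 1 fell (4291.6 to 4810.7 at 30d against 5468.9 to 6348.8 at 3d). For fat body limma again passed 0 of 7 (5473.5 to 6988.8 at 30d against 6788.4 to 8482.4 at 3d). No measured marker was at 0 on all arrays. The part of these cell types in the changes of the cycle genes was not tested, and in whole brains fewer cells of a type and less RNA per cell cannot be told apart.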

How the data were processed

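Total RNA of dissected brains was extracted with Trizol and labelled with an Ovation cDNA biotin kit, per the labels. The authors deposited a linear signal intensity for each of 18952 probe sets per array. GCRMA and MAS5 are named, without role or version, per the submitters' processing notes. The deposited signals had the same trimmed mean (150.002) on every array but different medians, so they were scaled and not quantile normalized. Array number limits the precision.

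Values were taken as log2(signal + 1). The 183 control probe sets were left out, and 13647 probe sets had 1 gene, 402 several and 4720 none. Names followed entrez identifiers through the RefSeq gene table (13544 matched). The brightest probe set stood for each gene, and genes needed at least 3 arrays above the 40th percentile of all values (5.71), which left 8171. Of the genes named, Pdk, ScsbetaG, brp, Mlp60A, sls and Pxn had more than 1 probe set, and only the brightest was described. The test was that of limma 3.58.1, run under R 4.3.3 (group means of 3 ages, 6 residual degrees of freedom, two-sided, threshold 0.05), and the fit was tested on simulated data. Figures used matplotlib 3.10.9 in Python 3.11.15. Members and lists were chosen with earlier results of these data known. All listed members were named, and of other pathway genes up to 3 per role with the largest called change, or the smallest p; Pdk, ScsbetaA, ScsbetaG, Scsalpha2, Mdh1 and the values at 30d were added after their values were seen, as were the marker genes named.

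Replicate numbers are shared between ages, but the deviations of same-numbered arrays from their age means correlated between -0.334 and 0.142, so the numbers were not taken to pair the arrays. Alternatives covered the normalization, the filter, the pseudocount, the probe set choice, the arrays fitted, the 3' to 5' ratio and a replicate block.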

Additional observations from a re-analysis of the deposited data

Results flagged for a closer look

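For 5 genes the change from 30 to 60 days differed from the change from 3 to 30 days in limma's test of that difference: muc (1.28 ± 0.24, adjusted p = 0.0307), mAcon1 (1.19 ± 0.29, adjusted p = 0.0323), Idh3g (0.90 ± 0.25, adjusted p = 0.0386), Idh (1.03 ± 0.33, adjusted p = 0.0492) and Scsalpha1 (1.23 ± 0.32, adjusted p = 0.0357). The values are log2 differences. Each of the 5 fell at 30d against 3d, by 0.54 to 1.14, and their changes at 60d against 30d, which did not pass, ran from -0.09 for Idh3g through 0.06 for mAcon1, 0.18 for muc and 0.20 for Scsalpha1 to 0.49 for Idh. With no filter on low signals none of the 5 passed, with adjusted p between 0.0564 and 0.0727, and all genes called fell from 1507 to 2. The 5 calls were also lost without 3d replicate 3, without 30d replicate 1, 2 or 3, or without 60d replicate 3. Of all genes tested 18.4% were called in the main fit, 10.1% in the same positive direction.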

How the results depend on the processing

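Of 19 alternatives, 9 left out a single array. At 60d against 3d the count of 5 called genes was 3 with only the arrays of these ages fitted and 3 to 6 with an array left out. The count at 30d against 3d, 6, stayed between 4 and 7, and that at 60d against 30d was 0 in all 19. The 5 called for the difference between intervals became 0 with no filter, 2 with the replicate block and 0 to 6 with an array left out. The 9 other pathway genes called at 60d against 3d became 20 when replicate 1 was removed from both 60d and 3d, and 7 to 14 with an array left out. All genes called went from 1511 to 4177 in the first of these fits. With the replicate block, which was not taken as pairing, Idh was not called at 30d against 3d (adjusted p = 0.0633), the difference between intervals was not called for Idh3g, Idh and Scsalpha1 (adjusted p = 0.0546, 0.0741 and 0.0533), and the other calls of the 7 genes did not change.

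Signs turned only for changes that did not pass. With quantile normalization Idh at 60d against 3d was 0.0398, Idh3a at 60d against 30d -0.0358 and Idh3a in the difference between intervals -0.0073. With median centring Idh3g at 60d against 30d was 0.0067. With the 3' to 5' covariate Idh3a at 60d against 30d was -0.044. With both replicate 1 arrays left out, mAcon1 and Idh3a at 60d against 30d were -0.12 and -0.0704. With an array left out, Idh3a ranged from -0.59 to 0.17 at 60d against 3d, from -0.60 to 0.16 at 30d against 3d, from -0.0704 to 0.10 at 60d against 30d and from -0.15 to 0.61 for the difference between intervals. In the same fits Idh at 60d against 3d ranged from -0.28 to 0.11, and at 60d against 30d mAcon1 ranged from -0.12 to 0.15 and Idh3g from -0.18 to 0.0434. Fewer arrays leave fewer degrees of freedom, yet the counts of all genes called went both up and down. The main fit shares the spread of a gene over the 3 ages, and the 30d replicates were the tightest. With only the 3d and 60d arrays fitted, the SE at 60d against 3d was 0.18 for muc and 0.18 for Idh3g. In the main fit both were 0.14. All genes called at 60d against 3d, 1511, ranged from 606 to 2492 with an array left out. They numbered 540 with only the arrays of these ages and 4177 with both replicate 1 arrays left out, and the cause was not tested. At 30d against 3d they numbered 3455, or 1555 to 4559 with an array left out and 5389 with both replicate 1 arrays left out. At 60d against 30d they numbered 44, or 9 to 502 with an array left out, 81 with quantile normalization, 22 with no filter, 20 with the replicate block and 74 with both replicate 1 arrays left out. For the difference between intervals they numbered 948 with the replicate block, 3265 with the covariate and 3652 with both replicate 1 arrays left out.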
